A study of Mus musculus with 4 samples.

Results

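Laminins and the proteins that tie them into sheets were followed as 10 genes, taken by gene symbol: the laminin alpha chains Lama1 to Lama5, the beta chains Lamb1 and Lamb2, the gamma chain Lamc1, the linker nidogen-1 (Nid1) and the proteoglycan perlecan (Hspg2). All 10 were among the 19388 genes with values. RNA sequencing of polyadenylated RNA was done on hippocampus of C57BL/6 mice, a common inbred strain, which the series title calls middle-aged. The 4 samples were 2 from mice given PBS, a buffered salt solution used as the control, and 2 from mice that received (+)-sodium L-ascorbate (the sodium salt of vitamin C), with 30 days of treatment. Dose, route, sex, exact age and whether a sample is 1 animal or a pool are not given in the sources used here, so a p-value here reflects the variation among these libraries, which may be technical.

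Laminins are cross-shaped proteins made of an alpha, a beta and a gamma chain. They polymerise on the cell surface into the first layer of a basement membrane, the thin matrix sheet under epithelia and endothelia and around muscle and nerve. Nidogen and perlecan join that layer to a network of type IV collagen, and integrins and dystroglycan bind it to cells. In brain, basement membranes lie around blood vessels, under the pia, and beneath the epithelium of the choroid plexus, the tissue in the ventricles that secretes cerebrospinal fluid.

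Values were FPKM, fragment counts normalised to transcript length and to the depth of the library, so levels can be set side by side between genes of a sample. Between samples the comparison also depends on the FPKM total, which was not the same in each. The sum of FPKM ran from 348132.7 to 391141.8 per sample, and read totals are not given, so no counting error can be attached to a value. Samples that carry the same number resembled each other in tissue content. Summed markers of hippocampal neurons (10 genes) were 446.8 and 587.8 FPKM in the samples numbered 1 of PBS and ascorbate, against 1132 and 1548 FPKM in the samples numbered 2, and summed markers of thalamic neurons (8 genes) were 338.5 and 417.6 FPKM against 49.9 and 39.7 FPKM. For this reason the difference of each member is also given within number 1 and within number 2, as a fold or on the log2 scale. For the related genes this is done in part.

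The promoters of Lama5 and Hspg2, the members with the widest fold differences, and that of Lamb1, whose groups overlapped, are shown first. They were picked for printing after their values were seen. Each line is the 250 bases before the start site that the RefSeq promoter table (GRCm38.p6) gives, 5′ to 3′ on the strand of the gene. That site lies within the gene span printed below, which begins further upstream, so the last 45 bases for Lama5, 52 for Hspg2 and 147 for Lamb1 fall inside the span. Sequences are in lower case, with capitals for GGGCGG or its reverse complement CCGCCC, the GC box that factors of the SP family can bind.
Lama5, minus strand, chr2:180225860-180226109: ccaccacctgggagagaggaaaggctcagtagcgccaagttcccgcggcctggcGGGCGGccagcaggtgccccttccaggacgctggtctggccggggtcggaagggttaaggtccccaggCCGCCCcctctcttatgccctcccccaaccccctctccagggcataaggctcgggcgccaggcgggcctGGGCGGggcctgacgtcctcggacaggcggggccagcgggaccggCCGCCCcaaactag
Hspg2, plus strand, chr4:137468553-137468802: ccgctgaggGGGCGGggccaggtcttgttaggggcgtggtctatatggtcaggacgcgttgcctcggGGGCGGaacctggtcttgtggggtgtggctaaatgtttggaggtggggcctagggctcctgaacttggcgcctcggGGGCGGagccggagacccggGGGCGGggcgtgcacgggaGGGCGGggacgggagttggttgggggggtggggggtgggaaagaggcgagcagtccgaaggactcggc
Lamb1, plus strand, chr12:31265043-31265292: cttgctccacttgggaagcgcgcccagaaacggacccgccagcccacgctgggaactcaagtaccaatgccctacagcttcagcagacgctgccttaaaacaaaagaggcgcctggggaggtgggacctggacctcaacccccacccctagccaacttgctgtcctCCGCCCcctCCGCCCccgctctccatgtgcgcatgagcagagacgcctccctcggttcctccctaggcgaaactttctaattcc

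The Lama5 window held 4 GC boxes on either strand, that of Hspg2 held 5 and that of Lamb1 held 2, and no matches overlapped. At least 4 were found in 4.09% and at least 5 in 1.93% of the 32851 promoter windows of the same length in the RefSeq table. At least 2, as for Lamb1, were found in 16.7%, and 32.7% held at least 1. Of the other members with an entry, Nid1 had 1 box, and none of these letters occurred in the windows of Lama2, of which 249 bases lie inside the gene span, and Lamb2. The G and C content was 72.4% for Lama5, 70.0% for Hspg2, 64.4% for Nid1, 62.0% for Lamb1, 47.2% for Lama2 and 43.6% for Lamb2, where the median over all windows was 52.4%. These matches describe the letters of the windows alone.

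In PBS samples the members spanned from 0.43 to 9.26 FPKM, with the beta and gamma chains above the alpha chains. Lamb1 was the most abundant by mean, followed by Lamb2, Lamc1, Lama5, Lama2, Nid1, Hspg2, Lama3, Lama4 and Lama1. Of the neighbours in this order, Lamb1 and Lamb2 overlapped, as did Lama3 and Lama4, and the other neighbours did not overlap in the PBS samples. With ascorbate the order by mean was Lamb1, Lamc1, Lamb2, Lama2, Lama3, Nid1, Lama5, Lama4, Hspg2 and Lama1. The first 3 overlapped each other in part, as did Lama3, Nid1 and Lama5, and Lama4, Hspg2 and Lama1. Lama5 thus went from rank 4 to rank 7, and Lama3 from rank 8 to rank 5.

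**Figure D1:**
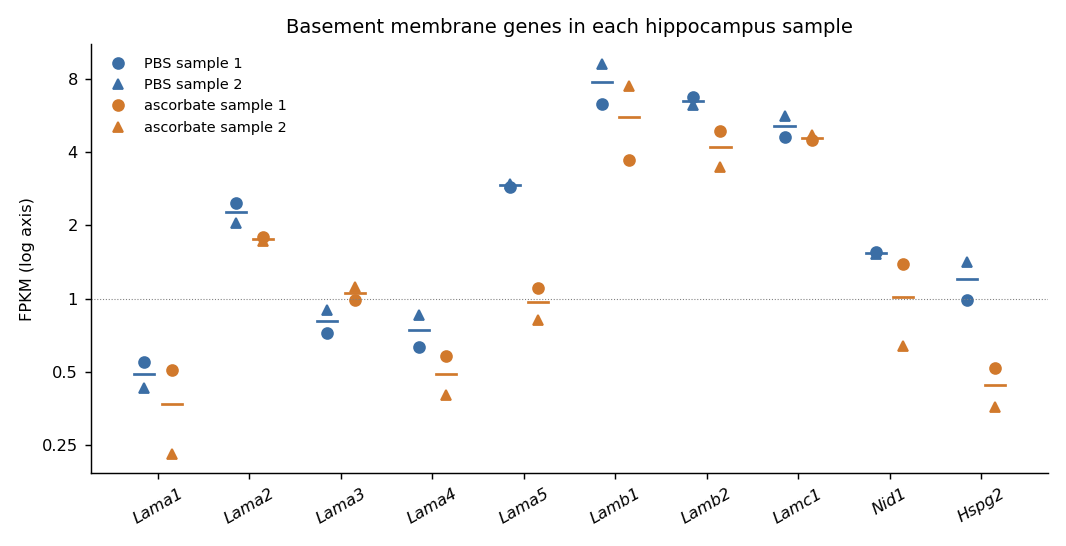
FPKM of the 10 genes in every sample on a log axis, with PBS in blue, ascorbate in orange, circles for samples numbered 1, triangles for samples numbered 2 and a bar at each group mean. The ascorbate points lie below both PBS points for Lama2, Lama4, Lama5, Lamb2, Nid1 and Hspg2, above them for Lama3, and overlap them for Lama1, Lamb1 and Lamc1. The dotted line marks 1 FPKM.

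Of the 10 genes, 6 had both ascorbate values under both PBS values (Lama2, Lama4, Lama5, Lamb2, Nid1 and Hspg2), 1 was higher (Lama3) and 3 overlapped. Among all genes with values, 14.6% were lower in this way and 7.67% were higher. With a mean of at least 1 FPKM, 6 members (Lama2, Lama5, Lamb1, Lamb2, Lamc1 and Nid1) entered the test across 13372 genes, limma-trend on log2(FPKM + 1). None of the 6 passed at an adjusted p of 0.05, where 0% of all tested genes passed. At an unadjusted p under 0.05, 2 members were lower, Lama5 and Lamb2, where 2.72% of tested genes were, and 0 members were higher, where 0.0972% were. The median log2 difference, ascorbate minus PBS, was -0.41 over the 6 members and -0.018 over all tested genes. Within number 1 it was -0.35, and within number 2 it was -0.45. In both number-wise comparisons 9 of the 10 members were lower with ascorbate, where 29.3% of genes with values were, and so were all 6 tested members, where 32.5% of tested genes were.

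Among the alpha chains, which set where a laminin is found and which receptor it binds, Lama5 stood lowest relative to PBS. The laminin alpha-5 chain is found in basement membranes of epithelia and of mature blood vessels. Lama5 (gene ID 16776, chromosome 2, 180176373 to 180225904, GRCm38) was 2.89 and 2.96 FPKM in PBS samples and 1.11 and 0.82 FPKM in ascorbate samples. Both ascorbate samples were far below both PBS samples, and within each group the samples lay close together. The group means differed 3.03-fold, by 2.60-fold within number 1 and 3.61-fold within number 2. On the log2(FPKM + 1) scale the difference was -1.002 (SE 0.19, limma-trend unadjusted p = 0.00523, adjusted p = 0.642), which ranked 109 among the tested genes. The fold was between 2.63 and 3.57 when any 1 sample was left out.

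The alpha-2 chain is the main laminin alpha chain of muscle and is also laid down in brain, where astrocyte end-feet meet vessels. Lama2 (chromosome 10, 26981285 to 27617191) was 2.48 and 2.05 FPKM in PBS samples and 1.80 and 1.72 FPKM in ascorbate samples. The groups did not overlap, but the gap between them was smaller than that between the PBS samples. The log2 difference was -0.24 (SE 0.19, limma-trend adjusted p = 1.0), with -0.31 within number 1 and -0.17 within number 2. Lama4 (chromosome 10, 38965515 to 39110188), the other alpha chain of vessel walls, was 0.63 and 0.86 FPKM against 0.58 and 0.40 FPKM. Its samples numbered 1 were nearly level, with a log2 difference of -0.045, and the difference lay mostly between those numbered 2, at -0.41.

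Lama1 and Lama3 were not lower in the same way. Lama1 (chromosome 17, 67697127 to 67822645), the chain of early embryonic basement membranes and of the pia, was 0.55 and 0.43 FPKM in PBS samples and 0.51 and 0.23 FPKM in ascorbate samples, so the groups overlapped. Its log2 difference of -0.13 (-0.038 within number 1 and -0.22 within number 2) was 0.020 without ascorbate sample 2. Lama3 (chromosome 18, 12333417 to 12583013), the chain that anchors skin epithelium, was 0.72 and 0.90 FPKM in PBS samples and 0.99 and 1.12 FPKM in ascorbate samples, the 1 member that was higher in both ascorbate samples. The log2 difference was 0.18, with 0.21 and 0.16 within numbers 1 and 2. Lama1, Lama3, Lama4 and Hspg2 had means under 1 FPKM and were not tested. With all genes kept, their adjusted p in limma-trend ran from 0.809 for Hspg2 to 1 for the other members of this group.

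**Figure D2:**
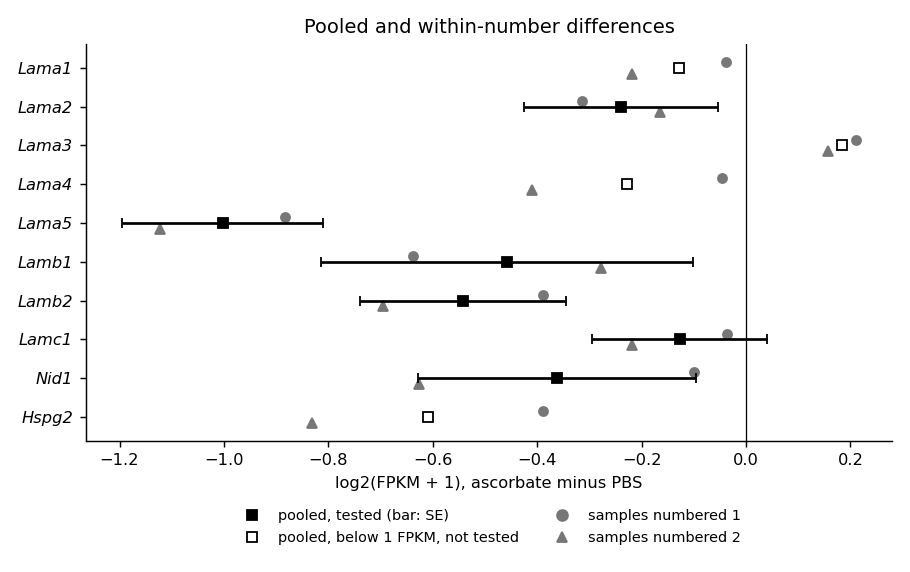
Log2(FPKM + 1) in ascorbate minus PBS for the 10 genes, as pooled group difference (squares, with the limma standard error as bars for the 6 tested genes; open squares were not tested) and as the difference between samples numbered 1 (circles) or numbered 2 (triangles). Lama3 alone lies above 0, and Lama5 lies lowest at -1.002.

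Summed over the 5 alpha chains, laminin alpha transcripts were 7.27 and 7.20 FPKM in PBS samples and 4.99 and 4.29 FPKM in ascorbate samples. Both ascorbate sums were lower than both PBS sums, by 1.56-fold between group means, 1.46-fold within number 1 and 1.68-fold within number 2. Lama5 made up most of that gap. It held 39.8% and 41.1% of the alpha sum in the PBS samples and 22.2% and 19.1% in the ascorbate samples, where Lama2 held the largest share with 36.1% and 40.1%. Lama3 went from 9.90% and 12.5% of the sum to 19.8% and 26.1%. Shares of Lama4 and Lama1 overlapped between the groups, and Lama2 and Lama4 together held 41.6% ± 1.67 with PBS and 48.6% ± 1.22 with ascorbate (SD, n = 2 each). These sums and shares are descriptions of genes chosen with results of these data known, and for any single value 2 against 2 samples cannot give an exact permutation p below 0.333.

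**Figure D3:**
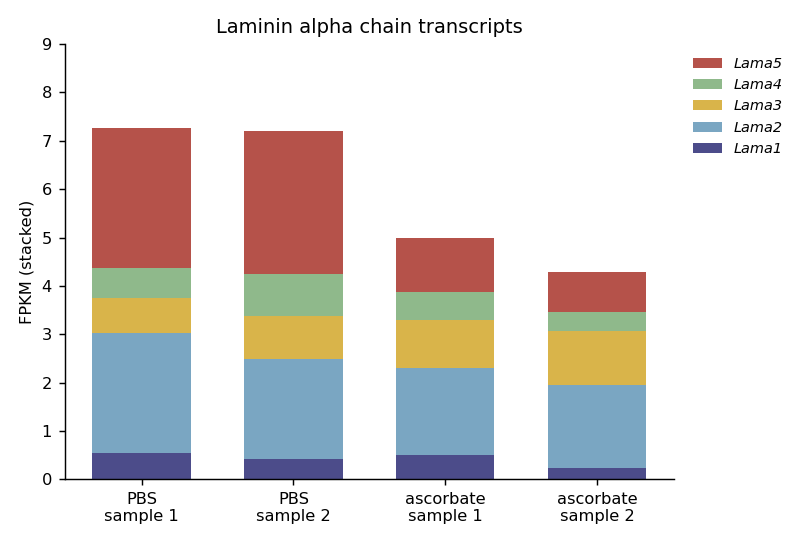
Stacked FPKM of the 5 laminin alpha chain genes in each sample. The stack reaches 7.27 and 7.20 FPKM in the PBS samples and 4.99 and 4.29 FPKM in the ascorbate samples, and the Lama5 segment at the top is the one that differs most in height.

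The beta chains differed from each other in how they followed the sample numbers. Lamb2, the beta chain of the kidney filter and the neuromuscular junction, also present in vessel walls, was 6.72 and 6.27 FPKM in PBS samples and 4.90 and 3.49 FPKM in ascorbate samples (chromosome 9, 108479847 to 108490530). The groups did not overlap, with a log2 difference of -0.54 (SE 0.20, limma-trend unadjusted p = 0.0472, adjusted p = 1.0). It was -0.39 within number 1 and -0.70 within number 2. With 1 sample left out it ran from -0.74 without ascorbate sample 1 to -0.34 without ascorbate sample 2. Lamb1 (chromosome 12, 31265146 to 31329644), the other common beta chain, was 6.34 and 9.26 FPKM in PBS samples and 3.72 and 7.46 FPKM in ascorbate samples. It was higher in the samples numbered 2 of both groups, and the groups overlapped. Within numbers it was lower with ascorbate by log2 differences of -0.64 and -0.28. The pooled difference of -0.46 (SE 0.36, limma-trend adjusted p = 1.0) was -0.88 without ascorbate sample 2, and leaving out ascorbate sample 1 gave -0.037. Without PBS sample 1 it was -0.70, and without PBS sample 2 it was -0.22. Leaving out 1 sample unbalances the numbers, which Lamb1 followed in both groups, so these values mix treatment with number. The ratio of Lamb1 to Lamb2 was 0.943 and 1.48 with PBS and 0.759 and 2.14 with ascorbate, higher in the samples numbered 2 whatever the treatment.

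Lamc1 (chromosome 1, 153218922 to 153332786), the gamma chain shared by most laminins, was close to level. It was 4.61 and 5.64 FPKM in PBS samples and 4.47 and 4.71 FPKM in ascorbate samples, with overlapping groups and a log2 difference of -0.13 (SE 0.17, limma-trend adjusted p = 1.0). The difference was -0.036 within number 1 and -0.22 within number 2. Since the alpha sum was lower and Lamc1 nearly level, the ratio of the alpha sum to Lamc1 was 1.58 and 1.28 with PBS and 1.12 and 0.911 with ascorbate. Summed beta chains (Lamb1, Lamb2 and Lamb3) over Lamc1 were 2.88 and 2.79 against 1.99 and 2.37. Neither ratio depends on the library total, and neither overlapped between the groups.

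Of the linkers, Hspg2 (gene ID 15530, chromosome 4, 137468751 to 137570630), whose product perlecan carries heparan sulfate chains that hold growth factors, was 0.99 and 1.42 FPKM in PBS samples and 0.52 and 0.36 FPKM in ascorbate samples. Both ascorbate samples were below both PBS samples, and the fold was 2.74 between the means, 1.90 within number 1 and 3.94 within number 2. The log2 difference of -0.61 understates this fold because the gene lies near the pseudocount of 1. Nid1 (chromosome 13, 13437602 to 13512275), the nidogen that bridges laminin gamma-1 and type IV collagen, was 1.56 and 1.53 FPKM in PBS samples and 1.39 and 0.64 FPKM in ascorbate samples. Its PBS samples were nearly equal and only ascorbate sample 2 lay well apart. The log2 difference of -0.36 (SE 0.27, limma-trend adjusted p = 1.0) was -0.091 without ascorbate sample 2, and leaving out ascorbate sample 1 gave -0.63. Within number 1 it was -0.099, and within number 2 it was -0.63.

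Members of the same pathway outside the 10 genes were taken as 6 lists with 89 genes in all, of which 68 were tested. None passed in limma-trend, where 0% of all tested genes did, and at an unadjusted p under 0.05 there were 10 lower and 0 higher, where 2.72% and 0.0972% of tested genes were. Of the 89, 28 were lower in both ascorbate samples without overlap and 4 were higher, where 14.6% and 7.67% of genes with values were. The median log2 difference over the 68 was -0.14, against -0.018 over all tested genes.

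Nidogen-2 (Nid2, chromosome 14), the relative of nidogen-1, was 1.70 and 3.42 FPKM in PBS samples and 0.31 and 0.38 FPKM in ascorbate samples. Both ascorbate samples were far lower, by 7.42-fold between means, with a log2 difference of -1.36 (SE 0.31, limma-trend adjusted p = 0.829). The fold was 4.93 without PBS sample 2 and 9.91 without PBS sample 1. Nid2 overlaps Rtraf and shares 437 bases of identical transcript with it, so its value is uncertain. Agrin (Agrn), a heparan sulfate proteoglycan of neuromuscular and vascular basement membranes, was 36.1 and 35.1 FPKM against 33.0 and 46.0 FPKM, overlapping and well above perlecan. Of the further laminin chains, Lamb3, which pairs with Lama3 in skin, was at most 0.27 FPKM in every sample, and Lamc3 was at most 1.05 FPKM.

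Basement membrane collagens split by chain. Col4a2, a chain of the common type IV network, overlapped between the groups, at 11.8 and 13.3 FPKM in PBS samples and 10.99 and 19.25 FPKM in ascorbate samples. Col4a4 and Col4a5, chains of the network best known from the kidney filter, were 1.92 and 1.83 against 0.30 and 0.13 FPKM and 2.76 and 2.57 against 1.16 and 0.98 FPKM. Neither overlapped, with log2 differences of -1.25 and -0.83 (limma-trend adjusted p = 0.527 and 0.805). Of the 6 collagens tested, 3 had a difference below 0, where 54.2% of all tested genes did, and 3 above. Of the same 6, 2 were lower without overlap, where 14.4% of tested genes were.

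Among 19 tested genes of other basement membrane components, 15 had a difference below 0, where 54.2% of all tested genes did. Without overlap, 6 were lower, where 14.4% of tested genes were, and 1 was higher, where 8.65% were. Tinagl1, a secreted matrix glycoprotein, was 3.45 and 5.03 FPKM in PBS samples and 0.95 and 0.75 FPKM in ascorbate samples, a 4.99-fold difference (limma-trend adjusted p = 0.417). Frem1, a matrix protein that holds epithelium to the tissue below, was 3.30 and 4.90 against 0.80 and 1.38 FPKM, and Ntn4, a netrin that binds laminin, was 3.17 and 3.09 against 1.84 and 1.31 FPKM. Fibulin-1 (Fbln1) was 9.26 and 8.87 against 6.31 and 2.70 FPKM. In each of these 4 genes both ascorbate samples were lower, and ascorbate sample 2 was the lower of the pair in 3 of them, Frem1 being the exception.

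Receptors were closer to level. Of 10 tested, 7 had a difference below 0, where 54.2% of all tested genes did, and 2 were lower without overlap, near the 14.4% of all tested genes. At an unadjusted p under 0.05 there were 0. Bcam, a laminin receptor that binds the alpha-5 chain, was 8.97 and 8.49 FPKM in PBS samples and 5.65 and 1.74 FPKM in ascorbate samples, a log2 difference of -1.19 (SE 0.46, limma-trend adjusted p = 1.0). It was lower in both ascorbate samples, and the samples numbered 2 differed by -1.79 against -0.58 for those numbered 1. The integrin subunit Itgb1, the shared beta chain of most laminin-binding integrins, was 22.8 and 19.8 against 19.0 and 14.2 FPKM. Itga6 and Itga7, its laminin-binding partners, overlapped between the groups.

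Laminin binding through dystroglycan depends on enzymes that build its sugar chain, and these were listed together with genes of the dystrophin complex. Of 17 such genes tested, 11 had a difference below 0, with a median of -0.060, and 3 were lower without overlap. Both counts are near the 54.2% and 14.4% of all tested genes. Pomgnt1, one of these enzymes, was 33.7 and 31.2 FPKM in PBS samples and 23.6 and 22.5 FPKM in ascorbate samples (log2 difference -0.48, limma-trend adjusted p = 1.0). Its transcripts share 592 identical bases with Lurap1, so its value is uncertain. Sntb1, a syntrophin of the dystrophin complex, was 4.07 and 3.12 against 2.18 and 1.27 FPKM, and B4gat1 overlapped between the groups.

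Of 14 tested enzymes and inhibitors that act on basement membranes, 10 had a difference below 0 (54.2% of all tested genes did), 5 were lower without overlap (14.4%) and 1 was higher (8.65%). Sulf1, which trims sulfate from heparan sulfate chains such as those of perlecan, was 22.04 and 27.79 FPKM in PBS samples and 5.51 and 1.34 FPKM in ascorbate samples. This was the widest difference among the 68 tested genes of the 6 lists on the log2(FPKM + 1) scale, at -2.72 (SE 0.53, limma-trend adjusted p = 0.648). By fold between means, Col4a4 at 8.72 and Nid2 at 7.42 were wider. The Sulf1 fold of 7.27 was 4.52 without ascorbate sample 2, and leaving out ascorbate sample 1 gave 18.6. The metalloproteinases Mmp2 and Mmp14 and the protease Adamts1 were lower without overlap as well, with log2 differences of -0.72, -0.39 and -0.79 and an adjusted p of 1.0 each in limma-trend.

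**Figure D4:**
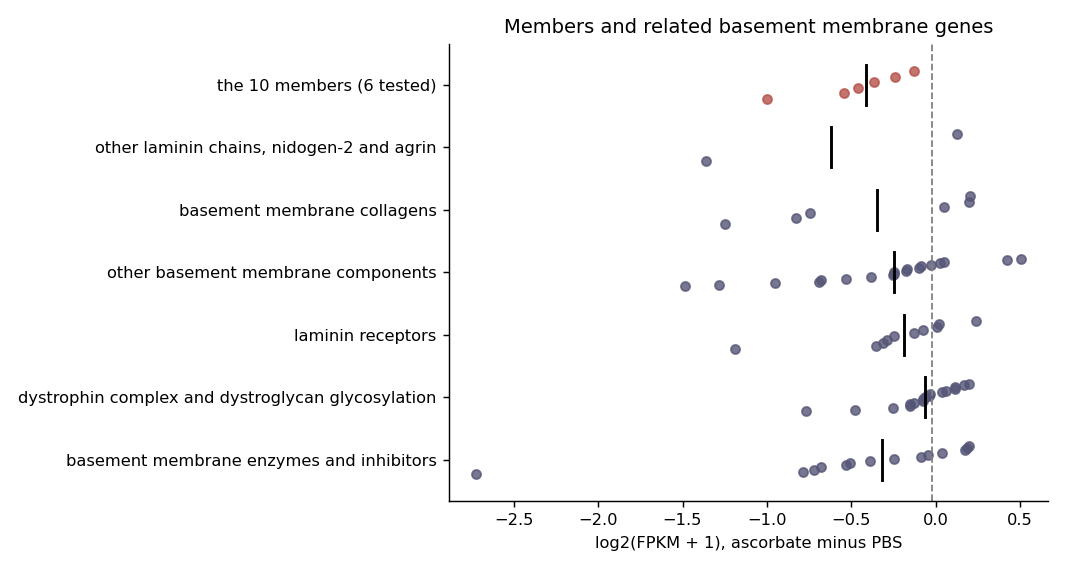
Log2(FPKM + 1) in ascorbate minus PBS of each tested gene, for the members (red) and 6 lists of related genes (blue), with a black bar at each median and a dashed line at the median of all 13372 tested genes (-0.018). The member median is -0.41, and single genes such as Sulf1 at -2.72 and Tinagl1 at -1.49 lie far to the left of their lists.

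Markers of tissues that carry basement membranes differed between the groups in the same samples. Of 15 markers of choroid plexus epithelium, 15 were lower without overlap, and their sum was 9697 and 8959 FPKM in PBS samples and 225.2 and 47.7 FPKM in ascorbate samples, where Otx2 and Tmem72 were listed at 0 in ascorbate sample 2. Of 17 markers of meningeal and perivascular fibroblasts, 17 were lower, with sums of 198.1 and 227.5 against 56.5 and 47.2 FPKM and none at 0. For pericytes and smooth muscle 5 of 12 were lower, 1 was higher and 6 overlapped, with sums of 80.3 and 97.1 against 45.2 and 48.2 FPKM. For endothelium 10 of 15 were lower, 1 was higher and 4 overlapped, with sums of 107.3 and 103.3 against 85.9 and 81.2 FPKM. Among all genes with values, 14.6% were lower and 7.67% higher without overlap.

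The choroid plexus sum was 43.1-fold lower with ascorbate within number 1 and 187.9-fold lower within number 2. Ttr contributed most to this sum in the PBS samples, and Enpp2 did in the ascorbate samples. Fibroblast sums were 3.51-fold and 4.82-fold lower, and endothelial sums 1.25-fold and 1.27-fold lower. For pericytes and smooth muscle the sums were 1.78-fold and 2.02-fold lower, and the median log2 difference of the tested markers was -0.18. Vitronectin (Vtn), at 48.24 and 43.99 against 21.3 and 19.5 FPKM, made up much of the sum. The list was split. Acta2 and Tagln were also lower without overlap, with folds of 5.17 and 6.0 between means. So were Myh11 and Cnn1, at 2.54 and 2.45, both too low to be tested. Kcnj8 was higher, and the other 6 overlapped. Ependymal markers, with sums of 76.0 and 37.8 against 73.7 and 4.21 FPKM, were low in ascorbate sample 2. Choroid plexus, fibroblast, endothelial and thalamic sums were lowest in that sample too, and its FPKM total of 348132.7 was the smallest. Lama1, Lama2, Lama4, Lama5, Lamb2, Nid1 and Hspg2 had their lowest values there. Lamb1 and Lamc1 were lowest in ascorbate sample 1, and Lama3 in PBS sample 1. Astrocyte markers were level, at 957.0 and 866.8 against 916.2 and 933.5 FPKM. Hippocampal neuron sums were higher with ascorbate within both numbers, at 446.8 against 587.8 and 1132 against 1548 FPKM. All 10 of these markers had a log2 difference above 0 (median 0.378), where 54.2% of all tested genes were below 0, but all 10 overlapped between the groups. The part of any of these tissues in the laminin, nidogen and perlecan differences was not tested, and in bulk tissue fewer cells of a type and less RNA per cell cannot be told apart.

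**Figure D5:**
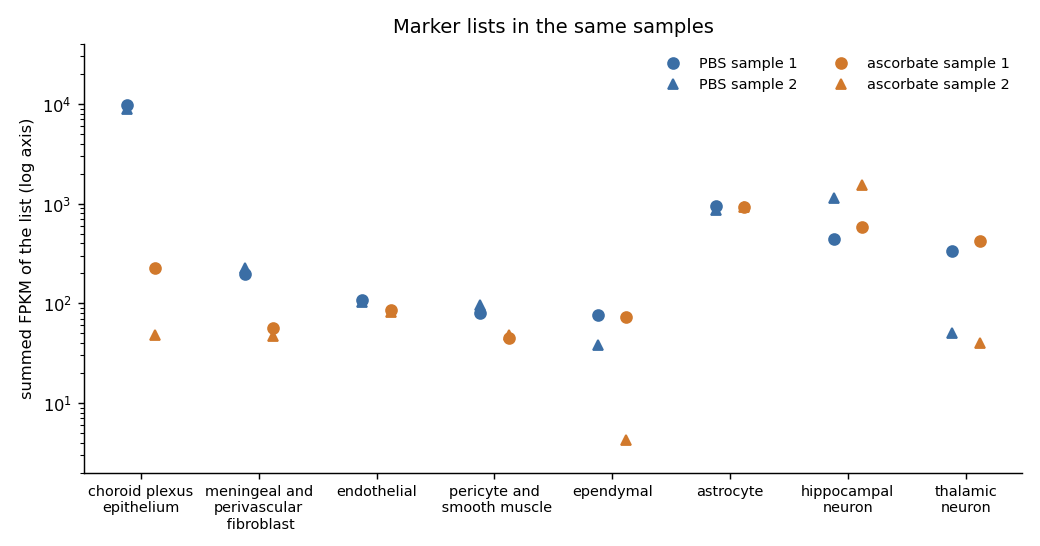
Summed FPKM of 8 marker lists in each sample on a log axis, PBS in blue and ascorbate in orange, circles for samples numbered 1 and triangles for samples numbered 2. Choroid plexus, fibroblast, pericyte and smooth muscle, and endothelial sums are lower in both ascorbate samples. Thalamic neuron sums separate by number rather than by treatment. Hippocampal neuron sums separate by number as well, and within each number they are higher with ascorbate.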

How the data were processed

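Each deposited file holds the FPKM of 1 library to 2 decimals, per the file headers. HISAT2, Bowtie2, RSEM and DESeq2 and the build GRCm38 are named in the submitters' processing notes, with no version or role. Annotation, strand setting and filters are not given in the sources used here. After joining on gene ID, 2785 of 22173 genes were empty in every sample. Depth is not stated. Over 337 olfactory and vomeronasal receptor genes, the modal value that was not 0 was 0.06 FPKM in 2 samples and 0.07 FPKM in the other 2.

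Limma-trend (limma 3.58.1, R 4.3.3) was fitted on log2(FPKM + 1) for 13372 genes whose mean reached 1 FPKM, modelling group alone, with 2 residual degrees of freedom. P-values were 2-sided and adjusted by Benjamini-Hochberg over all tested genes, and the fit was tested on simulated data. Members, gene lists and marker lists were chosen with earlier results of these data known. All members are named, with up to 4 genes of smallest p from each related list, and a few genes that this rule takes are not reported here. No p is given for sums over members. Alternatives were other pseudocounts, filters, scalings and variance options, the replicate number as a factor, and each sample left out. Transcripts of 40 named genes were compared with GENCODE M21 by BLAST+ 2.17.0 (95% identity over 200 bases), which matched Lama2 to Gm48084 (539 bases) and Nid1 to Gm2399 (225 bases), neither a gene of the files, and no member overlaps another gene of the files. Gene positions and promoters are from RefSeq (GRCm38.p6), where 6 members had a promoter entry.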

Additional observations from a re-analysis of the deposited data

How the results depend on the processing

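No tested gene and no member passed at an adjusted p of 0.05 under any other pseudocount, filter, scaling or variance option, or with any 1 sample left out (limma-trend, with the lone sample of a group assumed to vary like the other group). At an unadjusted p under 0.05, 377 genes passed. With the replicate block, a fit with 1 residual degree of freedom, 485 genes passed, among them 1 member, Lama5 (limma adjusted p = 0.00455). Same-numbered samples deviated together across genes (correlation 0.77), but the labels give the number no meaning, so the block is not the design. The median log2 difference of the tested members, -0.41, was -0.58 with a pseudocount of 0.1, -0.49 with 0.5 and -0.31 after quantile normalization. It was -0.30 with no filter (10 members) and -0.50 at a mean of at least 5 FPKM, which only Lamb1 and Lamb2 reached. With a sample left out it ran from -0.45 to -0.28. Of 112 single-member values under the alternatives, 1 changed sign, Lama1 at 0.020 without ascorbate replicate 2. The alpha chain sum kept its direction under TPM and median-of-ratios scaling and with each sample left out, from -0.75 to -0.54 on the log2 scale, and the joint share of Lama2 and Lama4 was 5.78 to 8.14 percentage points higher with ascorbate. Members near or below 1 FPKM have the least certain folds, since values carry 2 decimals and no depth.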
